A study of Mus musculus with 8 samples.

Results

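The interleukin-2 and interleukin-15 system was followed through its 6 genes, Il2, Il2ra, Il2rb, Il2rg, Il15 and Il15ra, which were chosen by name among the 24405 genes measured. Interleukin-2 is a growth factor made by activated T cells, and its high-affinity receptor joins an alpha chain (Il2ra, CD25), a beta chain (Il2rb, CD122) and the common gamma chain (Il2rg). Interleukin-15 signals through the same beta and gamma chains and through Jak kinases and Stat5. It is usually held on the surface of a myeloid cell by its own alpha chain (Il15ra) and shown there to NK cells and CD8 T cells. In transplanted organs the interleukin-2 receptor is known as a mark of activated T cells, and the alpha chain is also a mark of regulatory T cells.

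Single cells were profiled by Microwell-seq, in which cells and barcoded beads are paired in small wells and transcripts are counted as UMIs (unique molecular identifiers). Hearts, livers and kidneys of BALB/c donors were placed into C57BL/6 recipients without immunosuppression and taken at day 7, and the labels give BALB/c, 8 weeks and male for every library. There were 8 libraries, 1 for each condition: PBMCs of recipients of heart, liver and kidney grafts, tissue-infiltrating lymphocytes (TILs) of the 3 grafts, and parenchymal cell (PC) preparations of liver and kidney. Blood and grafts came from 2 recipients of each organ, which of them entered a library is not given in the sources used here, and there was no untransplanted control. Each library held 10000 barcodes. Of the 80000, 47541 had at least 500 UMIs and a mitochondrial share of at most 10%, and were analysed. Kidney PC gave 795 of these cells and liver PC gave 10000.

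Some libraries went against their labels. The library labelled heart TIL held 1056 UMIs of the hepatocyte gene Alb, and the library labelled liver TIL held 0, but held 128 UMIs of Myl7 and 206 of Acta1, which mark cardiomyocytes. Both are named by their labels here. The comparisons of gates within libraries were fitted without them too, and for NK cells and macrophages only the number of genes called is given. The comparison of CD8 T cells with CD4 T cells and those of TILs with PBMCs were not fitted without them. They would be left with 1 library or 1 pair, on which no test can be made. Pairs of libraries shared 123 to 617 barcodes. Cells were placed in gates by their own UMIs. CD8 T cells had a Cd3 and a Cd8 UMI without Cd4, NK cells had Ncr1 or Klrb1c without Cd3 or Cd8, and macrophages had Csf1r without Cd3. The macrophage gate is called by its rule and takes in blood monocytes: in PBMCs most of its cells were Ly6c2-positive. In heart PBMCs macrophage markers (5 genes) were at 14129 CPM in this gate and at 9883 CPM in neutrophils. Summed T-cell markers outside the gates (7 genes) ran from 3736 to 5416 CPM (UMIs of a gene or list scaled to 1000000 UMIs of all genes in the same gate and library) in CD8 T cells and from 247 to 2650 CPM in macrophages, and at least 5 of the 7 had a UMI in macrophages of every library. Neutrophil markers (4 genes) reached 88111 CPM in CD8 T cells of heart PBMCs, 33801 in those of liver PBMCs and 11353 in those of kidney PBMCs, against 62 to 4884 CPM in the other libraries. In sums of cells, fewer transcribing cells and fewer transcripts per cell cannot be told apart.

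Il2ra and Il15ra are neighbours on chromosome 2 (GRCm38), both on the plus strand. Il2ra lies at chr2:11642807-11693193 and Il15ra at chr2:11705290-11734317, with 12096 bases between them. Il2 lies at chr3:37120523-37125959, Il2rb at chr15:78479256-78495271, Il2rg at chrX:101264378-101268255 and Il15 at chr8:82331632-82403222, all on the minus strand. The upstream sequences of the neighbouring pair are shown because their 2 genes moved in opposite directions between macrophages and CD8 T cells. They are the 250 bases before each RefSeq start on the plus strand of GRCm38.p6, at chr2:11642542-11642791 for Il2ra and at chr2:11705043-11705292 and chr2:11705462-11705711 for the first and second start of Il15ra. Capitals mark a match to an interferon regulatory factor motif (AANNGAAA) in the first Il15ra sequence and to an AP-1 motif (TGANTCA) in the second.
Il2ra: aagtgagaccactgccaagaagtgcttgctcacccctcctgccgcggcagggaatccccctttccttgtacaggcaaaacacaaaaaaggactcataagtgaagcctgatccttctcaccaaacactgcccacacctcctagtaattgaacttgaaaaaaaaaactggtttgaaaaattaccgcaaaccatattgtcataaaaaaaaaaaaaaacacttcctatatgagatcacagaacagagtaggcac
Il15ra, first start: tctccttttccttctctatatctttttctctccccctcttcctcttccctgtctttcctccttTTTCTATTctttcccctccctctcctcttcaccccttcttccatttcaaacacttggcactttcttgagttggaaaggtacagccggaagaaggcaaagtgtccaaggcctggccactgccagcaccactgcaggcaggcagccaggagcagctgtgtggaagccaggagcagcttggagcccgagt
Il15ra, second start: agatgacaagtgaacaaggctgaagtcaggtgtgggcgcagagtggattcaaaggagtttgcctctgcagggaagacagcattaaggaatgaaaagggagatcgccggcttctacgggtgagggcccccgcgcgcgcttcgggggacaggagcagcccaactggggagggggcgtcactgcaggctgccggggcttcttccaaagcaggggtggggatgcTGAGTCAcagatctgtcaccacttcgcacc
The matches began 187 and 30 bases before the start, on either strand, and no Stat motif (TTCNNNGAA) was found in these windows. Of 32851 promoter windows of the same length, 21.3% held the interferon regulatory factor motif, 6.75% the AP-1 motif and 7.02% the Stat motif, so each match is a description of the letters only. RefSeq windows were found for 4 of the 6 genes, and those of Il2 and Il2rg held none of the 3 motifs.

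Il2 was sparse in every gate. In 13392 CD8 T cells there were 159 Il2 UMIs, and no cell held more than 2. Its level in CD8 T cells was 15.7 CPM in heart, 7.88 in liver and 7.12 in kidney PBMCs, 12.7 in heart, 12.6 in liver and 7.56 in kidney TILs, 6.81 in liver PC and 5.08 in kidney PC. Exact 95% Poisson intervals, which cover counting error only, were 9.34 to 16.8 CPM for heart TIL and 5.17 to 8.80 CPM for liver PC, and the highest library, heart PBMC (7.18 to 29.8 CPM), overlapped both. Macrophages held 0 to 9.99 CPM, neutrophils 0 to 18.9 and B cells 0 to 15.4, ranges that overlap that of CD8 T cells. Within libraries, Il2 was lower in macrophages than in CD8 T cells in 8 of 8 (pooled ratio 0.592, interval 0.365 to 0.920). In 3 of these, the kidney libraries with 23 to 37 macrophages, the macrophages held 0 Il2 UMIs. So few cells could hardly have shown a level like that of CD8 T cells. B cells were lower in 3 of 3, but on 5 UMIs. Pooled, they stood at 10.2 CPM in these 3 libraries, inside the 6.81 to 15.7 CPM of CD8 T cells there, so no difference was shown. Il2 was not called in any of the 7 comparisons below.

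The receptor chains were found in CD8 T cells of all 8 libraries. Il2rb stood at 126, 161 and 230 CPM in heart, liver and kidney PBMCs, at 162, 250 and 251 CPM in heart, liver and kidney TILs, at 209 CPM in liver PC and at 279 CPM in kidney PC. Il2ra stood at 8.72, 23.6 and 42.7 CPM in the same PBMCs, at 23.0, 35.7 and 47.9 CPM in the TILs, at 27.0 CPM in liver PC and at 30.5 CPM in kidney PC. For both chains kidney PBMCs were the highest and heart PBMCs the lowest of the 3 PBMC libraries. The TILs stood in the same order as labelled, but with the 2 doubted labels exchanged the liver TILs would be the lowest. Liver and kidney PBMCs did not differ beyond counting error (a ratio of 0.702, interval 0.475 to 1.02, for Il2rb and of 0.553, 0.180 to 1.45, for Il2ra), nor did liver and heart PBMCs (1.29, 0.854 to 1.91, for Il2rb). The Il2ra ratio of liver to kidney TILs was 0.746 (0.505 to 1.12) as labelled and 0.479 (0.324 to 0.721) with the labels exchanged, so only the second lies beyond counting error. Il2rg, the chain shared with other cytokine receptors, ran from 426 CPM in heart PBMCs to 627 CPM in heart TILs.

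**Figure D1:**
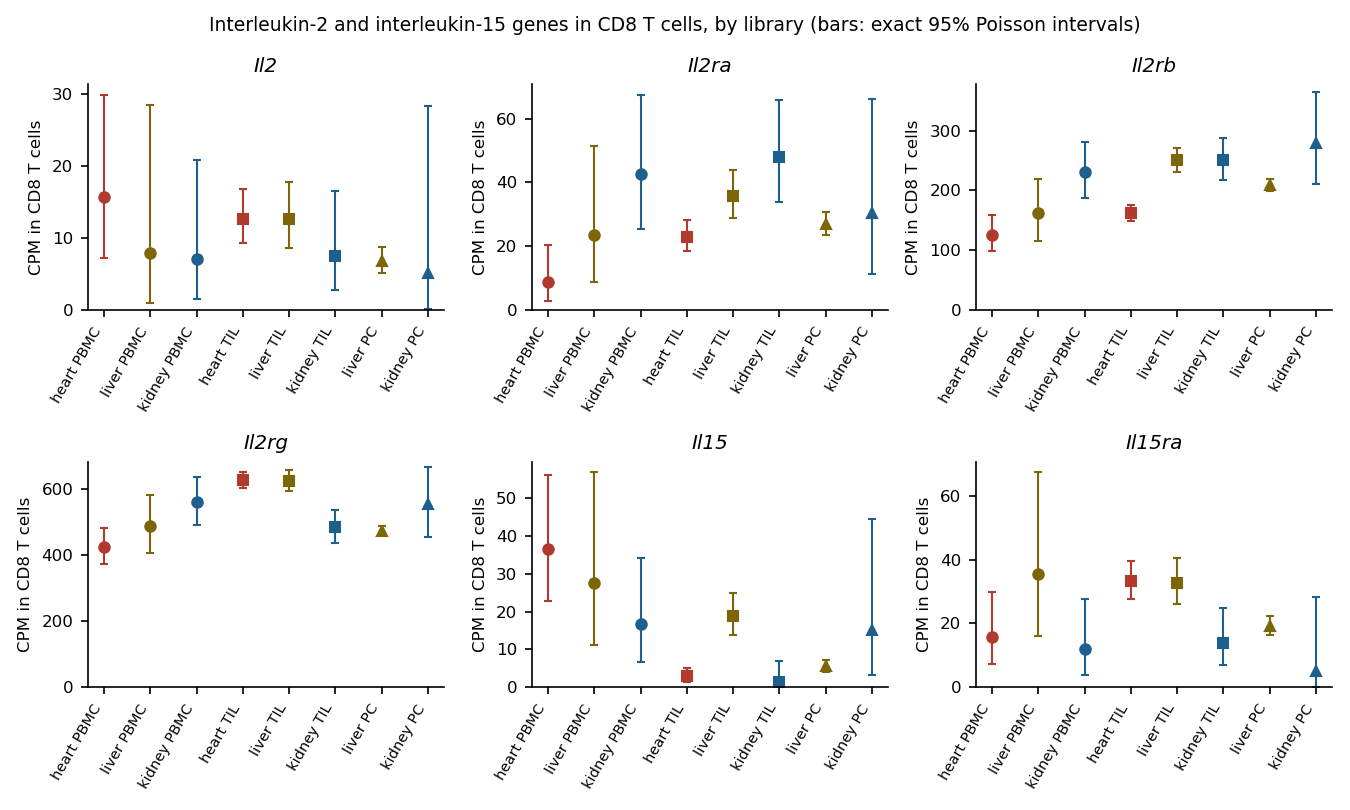
Level of each gene in CD8 T cells (y axis, CPM, from 0) in each of the 8 libraries (x axis), with exact 95% Poisson intervals, colours for the organ and symbols for PBMC, TIL and PC. Il2rb ran from 126 CPM in heart PBMC to 279 CPM in kidney PC, and Il15 was at 36.6 CPM in heart PBMC and at 1.26 CPM in kidney TIL.

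Organs could be set side by side only as single libraries, so their ratios carry counting error and no test between organs. Il2rb in CD8 T cells of heart PBMCs was 0.546 of the level in kidney PBMCs (exact 95% interval 0.397 to 0.748), and Il2ra was 0.204 of it (0.0593 to 0.571). These 2 sums also differed in neutrophil markers (88111 against 11353 CPM), in T-cell markers (3736 against 4928 CPM) and in cycling cells (90 of 531 against 164 of 358 CD8 T cells), and the part of these in the ratios was not tested. With gates that needed 2 UMIs (160 and 176 CD8 T cells) the Il2rb ratio lay above the interval of 0.397 to 0.748, as given below. In TILs labelled heart, Il2rb was 0.645 (0.549 to 0.761) and Il2ra 0.479 (0.324 to 0.721) of the level in kidney TILs. These sums too differed in neutrophil markers (4404 CPM in heart against 62 CPM in kidney TILs), and the part of these in the ratios was not tested. In TILs labelled liver, Il2rb was 1.55 times (1.38 to 1.73) and Il2ra 1.56 times (1.15 to 2.11) the level in those labelled heart, and these ratios take the 2 doubted labels as they stand. The same 2 sums differed in erythroid markers (45132 CPM in liver against 388 CPM in heart TILs), in NK markers (3357 against 7745 CPM) and in T-cell markers (4134 against 5344 CPM), and the part of these in the ratios was not tested. Against kidney TILs the liver TILs gave an Il2rb ratio of 0.998 (0.850 to 1.18). The PC preparations, which do not rest on the doubted labels, gave a liver to kidney ratio of 0.748 (0.572 to 0.997) for Il2rb, with 55 UMIs on the kidney side. These sums differed in cycling cells (2324 of 4506 in liver against 94 of 307 CD8 T cells in kidney PC). They also differed in median depth (1497 against 597 UMIs), and the part of both in the ratio was not tested.

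The share of CD8 T cells with an Il2rb UMI, after every cell was thinned to 500 UMIs, was 4.71% in heart, 10.04% in liver and 10.1% in kidney PBMCs. It was 7.14%, 11.8% and 11.7% in heart, liver and kidney TILs, 9.48% in liver PC and 14.0% in kidney PC. B cells gave 0 to 1.48% and neutrophils 1.27 to 9.09%, so the lower CD8 T shares lie inside the neutrophil range across libraries. Within libraries, Il2rb in CPM was lower in neutrophils than in CD8 T cells in 6 of 6. Without thinning the CD8 T shares were 10.9 to 28.7%, and the median depth of these cells differed among libraries (597 to 1497 UMIs). Il2ra and Il2rb were seen together in 162 CD8 T cells, Il2ra alone in 266 and Il2rb alone in 2584, and 10380 cells held neither. Deeper cells are more likely to show any pair of genes, and depth was not held fixed in these counts.

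Il2ra was higher in cycling CD8 T cells. Cells with a UMI of Mki67, Top2a or Birc5 (5366 cells) were set against the other CD8 T cells (8026 cells) of the same library. In PBMCs Il2ra was 21.3 against 4.63 CPM (heart), 52.7 against 11.2 (liver) and 54.6 against 24.2 (kidney), the cycling value first. In TILs it was 35.1 against 13.3 (heart), 42.7 against 31.8 (liver) and 62.9 against 35.1 (kidney). In liver PC it was 31.4 against 20.1 CPM, and kidney PC went the other way, with 15.8 against 37.5 CPM. Il2ra was thus higher in 7 of 8 libraries, though the ranges of the cycling and other cells overlapped. The log2 difference was 0.73 (SE 0.16, adjusted p = 1.8e-04, edgeR quasi-likelihood test over 13651 genes). It was the only 1 of the 6 genes called, where 11.0% of all genes were called in either direction, 3.79% as higher and 7.25% as lower.

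Without the libraries labelled heart TIL and liver TIL the Il2ra difference was 0.72 with an adjusted p of 0.072 (edgeR), and with every cell thinned to 500 UMIs it was 0.71 with an adjusted p of 0.10. Without the library term Il2ra lost its call too (edgeR adjusted p = 0.91), in a fit that called 4 of 13651 genes. Il2ra was called under 14 of 17 alternatives. Median depth was 629 to 1810.5 UMIs in cycling cells and 585 to 1298 in the others. Macrophage and erythroid markers were lower in cycling cells in 8 of 8 libraries (macrophage markers 749 to 8318 CPM against 1470 to 10404) and neutrophil markers in 7 of 8, T-cell markers were higher in 7 of 8, and their part in the result was not tested. Il2rb differed by 0.21 (SE 0.09, adjusted p = 0.13) and was higher in 6 of 8 libraries. Il2rg differed by -0.16 (SE 0.08, adjusted p = 0.25), Il15 by -0.41 (SE 0.28, adjusted p = 0.46) and Il15ra by -0.24 (SE 0.17, adjusted p = 0.48). The Il2ra difference was not shown to depend on compartment: the interaction of cycling with graft against blood was -0.83 (SE 0.66, adjusted p = 0.94), in a test that called 0.791% of all genes, 0.520% higher and 0.271% lower.

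Of 36 further genes of the pathway, in 4 lists, 32 could be tested in cycling CD8 T cells, and 0 were higher and 9 lower, where 3.79% of all genes were higher and 7.25% lower. Their median log2 difference was -0.26, against -0.08 over all genes. None of 11 Jak-Stat signalling genes was called. Among Stat5 targets and feedback genes, Socs3 (-0.70), Socs1 (-0.61), both inhibitors of cytokine signalling, and the survival gene Mcl1 (-0.55) were lower. The receptor chains Il4ra (-0.82) and Il7r (-0.79), which share the gamma chain, were lower too. Of 6 interferon-induced genes, 4 were lower, among them Gbp2 (-0.87), Cxcl9 (-0.73) and Irf1 (-0.58). Gbp2 and Irf1 were lower in 8 of 8 libraries, but Il4ra was lower in 6 and Il7r in 4 of 8, and macrophage markers were lower in the cycling cells of all 8. Without the libraries labelled heart TIL and liver TIL, Il4ra (-0.74, adjusted p = 0.055) and Socs1 (-0.53, adjusted p = 0.20) were not called.

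The comparison of Foxp3- or Ctla4-positive CD4 T cells with other CD4 T cells could not be fitted, because only liver PC held 20 cells of each kind (59 and 53). There, Il2ra was 44.9 CPM (5 UMIs) against 23.8 CPM (2 UMIs), and Il2rb was 278 against 369 CPM. A wider split was added after the data were seen: all Cd3-positive cells, whatever their Cd4 and Cd8, with a Foxp3 or Ctla4 UMI (2757 cells in 7 libraries) or without. Summed markers of regulatory T cells (Ikzf2, Tnfrsf4, Tnfrsf18 and Capg) were higher in the positive cells in 7 of 7 libraries, though level in heart PBMCs (210.4 against 210.0 CPM). The same list was also higher in macrophages than in CD8 T cells in 8 of 8 libraries, so it does not single out regulatory T cells. The gate admits Ctla4-positive CD8 T cells as well and is called by its rule. Foxp3-positive T cells numbered 69 in liver PC and 14 or fewer in each other library, so most cells of the gate entered by Ctla4 alone.

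Il2ra in Foxp3- or Ctla4-positive T cells was 42.1 against 1.22 CPM in heart, 28.0 against 8.64 in liver and 60.4 against 3.03 in kidney PBMCs. It was 33.7 against 20.6 CPM in heart, 76.2 against 25.6 in liver and 35.8 against 46.8 in kidney TILs, and 32.5 against 23.5 in liver PC. The positive cells were higher in 6 of 7 libraries, and their values in PBMCs rest on 4, 1 and 19 UMIs. The log2 difference was 0.77 (SE 0.18, adjusted p = 3.3e-04, edgeR). Il15 was lower in 7 of 7 libraries (0 to 31.6 CPM against 0.995 to 76.3 CPM), by -1.68 (SE 0.32, adjusted p = 9.6e-06), and Il15ra was lower by -0.76 (SE 0.21, adjusted p = 0.0056). The positive cells held 20 UMIs of Il15 and 78 of Il15ra in all, and each gene was at 0 in 2 libraries. Il2rb differed by 0.34 (SE 0.13, adjusted p = 0.12) and was 198 to 326 CPM against 72.9 to 260 CPM, and it was called under 3 of 16 alternatives. So 1 gene was higher and 2 lower, where 7.43% of all genes were called, 0.605% higher and 6.82% lower.

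**Figure D2:**
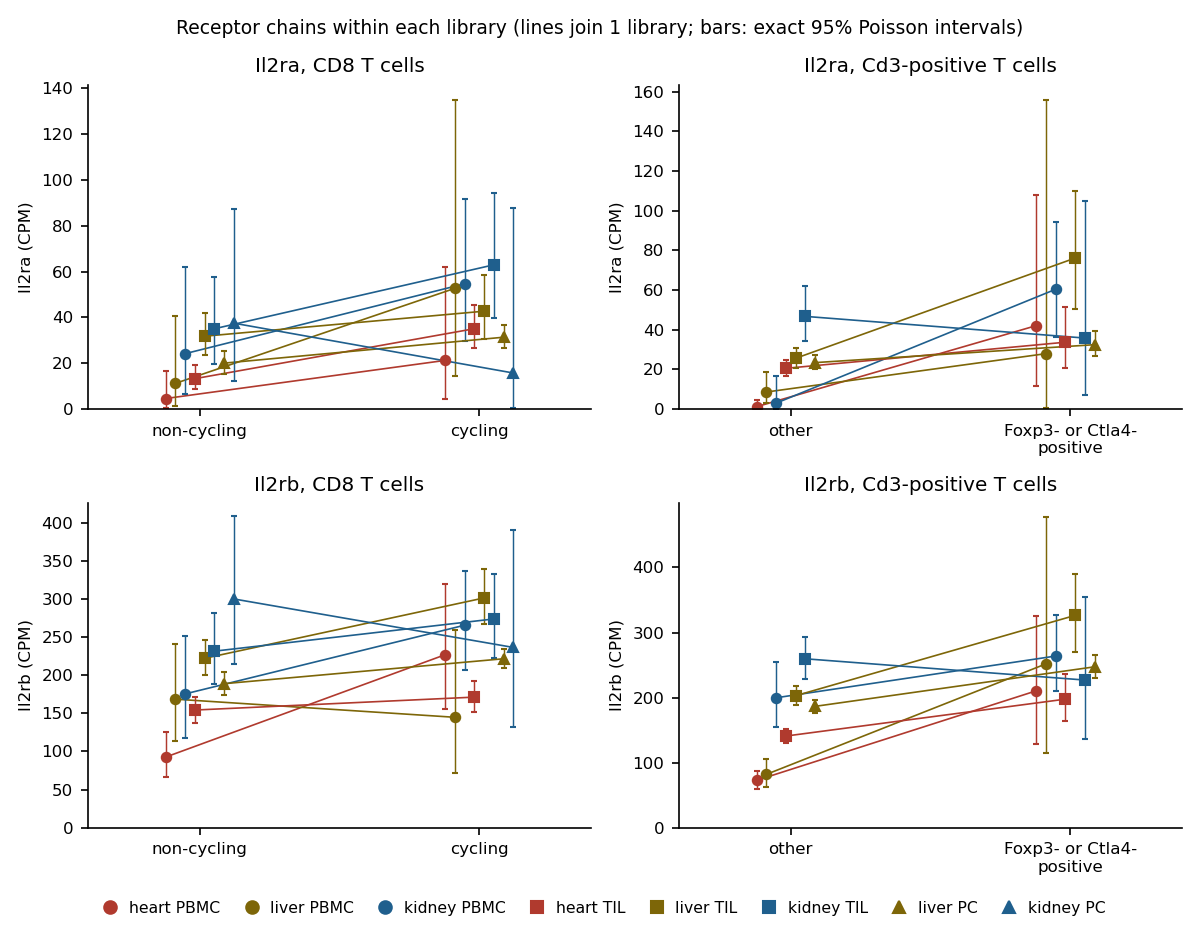
Il2ra (top) and Il2rb (bottom) in CPM (y axes, from 0) in non-cycling and cycling CD8 T cells (left) and in other and Foxp3- or Ctla4-positive T cells (right), 1 line for each library with exact 95% Poisson intervals. Il2ra rises to the right in 7 of 8 and in 6 of 7 libraries, and several intervals overlap.

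Neutrophil, macrophage and erythroid markers were lower in the Foxp3- or Ctla4-positive cells in 7 of 7 libraries (neutrophil markers 35.8 to 58783 CPM against 73.6 to 124271 CPM). T-cell markers were higher in 7 of 7 (4252 to 6056 CPM against 1771 to 4810 CPM), and the part of these transcripts in the results for Il2ra, Il15 and Il15ra was not tested. The positive cells were also deeper (median 695.5 to 1761 UMIs against 669.5 to 1354), and with every cell thinned to 500 UMIs none of the 3 was called (edgeR adjusted p = 0.19 for Il2ra, 0.057 for Il15 and 0.18 for Il15ra). Without the libraries labelled heart TIL and liver TIL, Il15 was still called (-1.77, adjusted p = 9.2e-04), while Il2ra (0.84, adjusted p = 0.11) and Il15ra (-0.72, adjusted p = 0.33) were not. Il2ra lost its call without the library labelled liver TIL (0.66, adjusted p = 0.050) and Il15ra without that labelled heart TIL (-0.72, adjusted p = 0.096). Over 16 alternatives Il15 was called under 13, Il2ra under 11 and Il15ra under 9, and none of them was called without the library term. That fit called 2 of 14552 genes. Of 33 tested genes of the 4 lists, 1 was higher and 7 lower, with a median of -0.22 against -0.10 over all genes. Over all genes 0.605% were higher and 6.82% lower. The higher gene was Il21 (1.27), a gamma chain cytokine of helper T cells. The lower genes included Gbp2 (-1.09), Il4ra (-1.08), Cxcl9 (-0.85), Socs3 (-0.81), Mcl1 (-0.78) and Irf1 (-0.70). The 69 Foxp3-positive T cells of liver PC held Il2ra at 65.9 CPM (30.1 to 125, 9 UMIs) and no Il2 UMI.

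Few cells entered the CD4 T gate, which needs a Cd4 UMI: 26 in heart TIL, 36 in liver TIL and 112 in liver PC, and 15 or fewer in the other 5 libraries. Many T cells entered neither gate: heart TIL held 3781 CD8 T cells but 5554 Cd3-positive cells without Foxp3 or Ctla4. The counts therefore do not give the share of CD4 T cells. In these 3 libraries CD8 T cells and CD4 T cells were compared, and none of the 6 genes was called, where 0.457% of 13357 genes were called by edgeR (0.299% higher and 0.157% lower), 830 had an unadjusted p under 0.05 and DESeq2 called 22. Il15ra was 19.3 to 33.3 CPM in CD8 T cells and 0 to 5.12 CPM in CD4 T cells, which held 1 UMI of it, and the pooled ratio of 6.41 had an interval of 1.14 to 254 (log2 difference 2.78, SE 1.14, adjusted p = 0.61). Il2rb was 162 to 250 CPM in CD8 T cells and 128 to 317 CPM in CD4 T cells. Il2 held 2 UMIs in the 174 CD4 T cells, too few to place its level against that of CD8 T cells. Of 32 list genes tested, Il21 was lower in CD8 T cells (-3.15, adjusted p = 9.0e-06, 1.57 to 11.4 CPM against 56.3 to 110 CPM) and Cxcl9, an interferon-induced chemokine, was higher (1.21, adjusted p = 0.0064). Cxcl9 was higher in 2 and lower in 1 of the 3 libraries (294 to 509 CPM against 128 to 341 CPM) and was not called with DESeq2 (adjusted p = 0.50), thinned cells (0.40) or without the library term (0.87). Macrophage, neutrophil and B-cell markers were each higher in CD8 T cells in 3 of 3 libraries (macrophage markers 3950 to 7912 CPM against 2528 to 6908 CPM), and their part in the Cxcl9 difference was not tested.

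NK cells held the beta chain, and almost no UMI of the alpha chain was found in them. In 541 NK cells of 6 libraries there was 1 Il2ra UMI, in heart TIL, and 0 in the other 5. Pooled over these libraries Il2ra was 2.14 CPM in NK cells and 27.1 CPM in CD8 T cells, a ratio of 0.0788 with an exact interval of 0.00199 to 0.441. The adjusted p was 0.013 (edgeR), for a fitted log2 difference of -3.66 that rests on that single UMI. It was 1 of 6 genes called, where 2.83% of all genes were called and 2.35% as lower. It was called under 7 of 13 alternatives. It lost its call without liver PBMC (edgeR adjusted p = 0.058), without kidney PBMC (0.092), without the library term (0.083), with cells of 1000 UMIs (0.11), with thinned cells (0.12) and with gates of 2 UMIs (0.42). Macrophage and neutrophil markers were each higher in NK cells than in CD8 T cells in 5 of 6 libraries (in liver PBMCs 14683 against 8325 CPM and 54827 against 33801 CPM), and their part in the NK results was not tested.

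Il2rb in NK cells was 217, 241 and 447 CPM in heart, liver and kidney PBMCs, 328 and 238 CPM in heart and liver TILs and 459 CPM in liver PC. It was above the CD8 T level of the same library in 5 of 6, liver TIL being the exception. The log2 difference was 0.50 (SE 0.21, adjusted p = 0.21) and the pooled ratio 1.53 (1.29 to 1.81). Scaling bore on this comparison: the median over all genes was -0.42 with TMM scaling and -0.09 with RLE size factors, and Il2rb relative to it was 0.93 and 0.97. With DESeq2 the median was 0.30 and Il2rb relative to it 0.57. With RLE size factors Il2rb itself was 0.88 and was called (adjusted p = 1.7e-04), and DESeq2 called it as well (0.86, adjusted p = 0.0019). In all, Il2rb was called under 5 of 15 alternatives. The calls over all genes split into 65 higher and 318 lower with TMM, 192 and 110 with RLE and 80 and 48 with DESeq2. Il2rg differed by -0.13 (SE 0.18) with TMM and by 0.24 with RLE, and was called with neither. Of 32 list genes, Il21r (-2.46) and Lck (-1.10), a T-cell kinase, were lower in NK cells and the kinase Pim2 (1.10) was higher, with a median of -0.12. Over all genes 0.480% were higher and 2.35% lower.

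Between macrophages and CD8 T cells of the same library, Il15 and Il15ra were higher and Il2ra and Il2rb lower in macrophages. Il15 in macrophages was 65.5 CPM in heart, 61.2 in liver and 108 (3 UMIs) in kidney PBMCs, 19.99 in heart and 30.7 in liver TILs and 9.56 in liver PC. It was listed at 0 in the 37 macrophages of kidney TIL and the 23 of kidney PC, where intervals reach 149.6 and 244 CPM. In CD8 T cells it was 36.6, 27.6 and 16.6 CPM in the PBMCs, 2.90, 18.8 and 1.26 CPM in the TILs, 5.52 CPM in liver PC and 15.2 CPM in kidney PC. Macrophages were thus higher in 6 of 8 libraries, and the ranges overlapped. Of the 130 Il15 UMIs in this gate, 84 came from PBMCs, where most of its cells were Ly6c2-positive. The log2 difference was 1.26 (SE 0.25, adjusted p = 7.3e-06, edgeR over 14137 genes).

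Il15ra, the presenting chain, was 36.4, 23.1 and 108 CPM (3 UMIs) in macrophages of heart, liver and kidney PBMCs and 68.0 and 36.8 CPM in those of heart and liver TILs. It was 81.3 CPM in liver PC, 66.3 CPM (1 UMI) in kidney PC and 0 in kidney TIL. In CD8 T cells Il15ra ran from 5.08 to 35.4 CPM, and macrophages were higher in 6 of 8 libraries, by 1.22 (SE 0.22, adjusted p = 6.4e-07). Neutrophils held Il15ra at 23.7 to 101 CPM, above CD8 T cells in 5 of 6 libraries and above macrophages in 4 of 6, so the level was not particular to macrophages. Within grafts, Il15ra in macrophages of liver PC was 2.21 times (1.42 to 3.56) that of the library labelled liver TIL and 1.20 times (0.816 to 1.80) that of the library labelled heart TIL, so a difference between the liver preparations depends on the doubted labels. The library labelled liver TIL held 0.542 times (0.308 to 0.941) the level of that labelled heart TIL. The 26 Kupffer cells of liver PC (Clec4f-positive macrophages of the liver) held no Il15 UMI and Il15ra at 96.6 CPM (38.9 to 199, 7 UMIs).

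**Figure D3:**
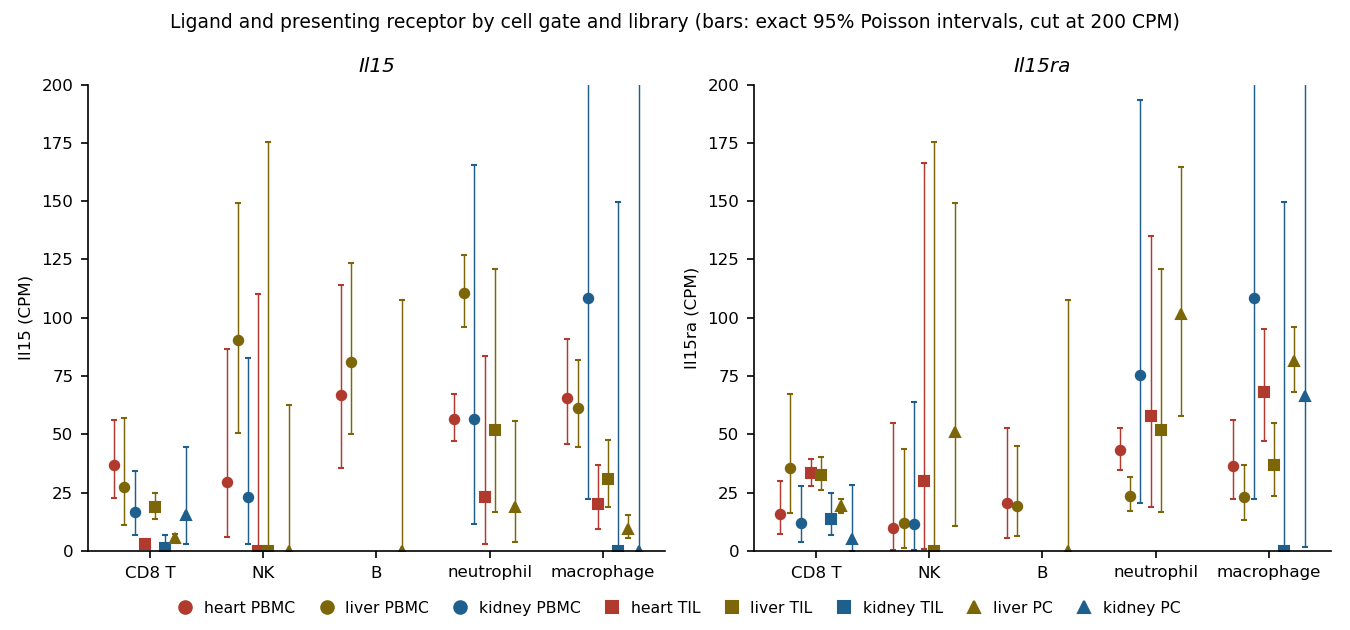
Il15 (left) and Il15ra (right) in CPM (y axes, 0 to 200, with longer intervals cut at 200) by gate (x axis), 1 point for each library with at least 20 cells and exact 95% Poisson intervals. Il15 points of PBMC libraries (circles) reach 110.6 CPM in neutrophils and 108 CPM in macrophages, and those of liver PC lie at 9.56 CPM in macrophages and 5.52 CPM in CD8 T cells.

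The 2 receptor chains of interleukin-2 went the other way. Il2ra had 12 UMIs in 3379 macrophages and was lower than in CD8 T cells in 8 of 8 libraries (-2.93, SE 0.37, adjusted p = 2.0e-13). Il2rb was 18.2 to 132.5 CPM in macrophages and was also lower in 8 of 8 (-2.37, SE 0.21, adjusted p = 4.4e-26). Il2rg (-0.19, SE 0.17, adjusted p = 0.45) and Il2 (-0.66, SE 0.36, adjusted p = 0.16) did not pass. In this comparison 28.4% of all genes were called, 13.8% higher and 14.6% lower, against 2 and 2 of these 6. Neutrophil markers were higher in macrophages than in CD8 T cells in 6 of 8 libraries (123468 CPM in heart PBMC), and their part in the Il15 difference was not tested. Fitted without the library term, Il15 kept its direction (1.61, adjusted p = 0.092) but lost its call.

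Of 32 list genes tested in macrophages against CD8 T cells, 12 were higher and 7 lower, with a median of 0.10 against -0.10 over all genes. Over all genes 13.8% were higher and 14.6% lower. Of 6 interferon-induced genes and regulators of Il15, 5 were higher, led by Cxcl9 (1.62) and Gbp2 (1.22). The adaptor Gab2 (1.65) and the interleukin-4 receptor chain Il4ra (1.29) were higher too. The lower genes with the greatest differences were Il21 (-2.85), Lck (-2.55), Pim2 (-1.98), Il7r (-1.75) and Cish (-1.43), a Stat5 target that dampens the same receptors. Il21 rests on 2 UMIs in macrophages, with a pooled ratio of 0.0765 (0.00914 to 0.283), and DESeq2 gave -0.33 without a call.

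Neutrophils and B cells of heart and liver PBMCs also held Il15. Neutrophils (Csf3r-positive, 5563 cells in 6 libraries) had 56.5, 110.6 and 56.6 CPM in heart, liver and kidney PBMCs, 23.2 and 51.8 CPM in heart and liver TILs and 19.0 CPM in liver PC. The level in neutrophils of liver PBMCs was 1.96 times (1.56 to 2.46) that of heart PBMCs. B cells held 66.8 CPM in heart and 80.9 CPM in liver PBMCs and 0 in the 21 B cells of liver PC. NK cells held 29.6 CPM (3 UMIs) in heart, 90.4 CPM (15 UMIs) in liver and 22.9 CPM (2 UMIs) in kidney PBMCs and 0 in the 29 to 44 NK cells of each of 3 graft libraries, and were above CD8 T cells in 2 of 6 libraries. In liver PBMCs, then, the Il15 levels of macrophages, neutrophils, B cells and NK cells lay between 61.2 and 110.6 CPM, and CD8 T cells were at 27.6 CPM (7 UMIs). Ungated cells of that library held 66.7 CPM and Cd3-positive cells without Foxp3 or Ctla4 76.3 CPM, so that level was not particular to any of these gates. B cells carried neutrophil markers at 120323 CPM in heart and 63096 CPM in liver PBMCs, and the part of free transcripts in these levels was not tested.

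Between blood and graft, Il15 in CD8 T cells was lower in TILs than in the PBMCs of the same organ in 3 of 3 pairs: 2.90 against 36.6 CPM (heart), 18.8 against 27.6 CPM (liver) and 1.26 against 16.6 CPM (kidney). The log2 difference was -2.33 (SE 0.52, adjusted p = 4.1e-04, edgeR with organ as a block), in a comparison that called 10.9% of all genes and 4.86% as lower. Without the heart pair it was -1.25 with an adjusted p of 0.35, and without the organ term, which frees the fit from the doubted labels, it was -1.79 with an adjusted p of 0.42. The fit without the organ term called 7 of 12209 genes. Il15 was called under 5 of 11 alternatives, and not with DESeq2 (adjusted p = 0.064), cells of 1000 UMIs (0.12), thinned cells (0.13) or gates of 2 UMIs (0.55). Neutrophil markers in these CD8 T cells fell along with it, from 11353 to 88111 CPM in PBMCs to 62 to 4404 CPM in TILs, and their part was not tested. Il2ra differed by 0.61 (SE 0.39, adjusted p = 0.37) and was higher in TILs in 3 of 3 pairs as labelled, but in 2 of 3 with the doubted labels exchanged (liver 23.0 against 23.6 CPM). Il2rb differed by 0.33 (SE 0.26, adjusted p = 0.49) and Il15ra by 0.39 (SE 0.42, adjusted p = 0.64).

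Of 32 list genes in CD8 T cells, 3 were higher and 7 lower in TILs, where 6.0% of all genes were higher and 4.86% lower, with a median of -0.46 against 0.13 over all genes. Cxcl9 was 322 to 509 CPM in TILs and 2.37 to 6.98 CPM in PBMCs, and Irf8, an interferon-regulated transcription factor, was higher by 1.83. Macrophages of the same TIL libraries held Cxcl9 at 674 to 3245 CPM, and the part of their transcripts in the CD8 T sums was not tested. Il21 had 50 UMIs in TILs and 0 in all 3 PBMC libraries, and no fold is given for it. The lower genes included Il7r (-1.85), the receptor of naive and memory T cells, and Stat5b (-1.31), which carries the signal of both cytokines. Socs3 (-1.28), Mcl1 (-1.25), Akt1 (-1.13), Irf1 (-1.12) and Gbp2 (-1.10) were lower as well, in the same sums in which neutrophil markers were lower, and the part of those transcripts was not tested.

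The macrophage gate differed in make-up between blood and graft. Ly6c2-positive cells made up 450 of 557 in heart and 579 of 741 in liver PBMCs, with 5 and 13 C1q-high cells, while C1q-high cells made up 332 of 499 in heart and 491 of 664 in liver TILs. In these macrophages the same pairs gave Il15 at 19.99 against 65.5 CPM (heart), 30.7 against 61.2 CPM (liver) and 0 against 108 CPM (kidney, 0 and 3 UMIs). Il15 was lower by -1.64 (SE 0.48, adjusted p = 0.0083), and Il2rg was higher by 1.25 (SE 0.39, adjusted p = 0.016), at 584, 620 and 1176 CPM against 198, 306 and 289 CPM. These were 2 of the 5 genes tested, where 12.9% of all genes were called, 6.25% higher and 6.67% lower. Il15 was called under 8 of 11 alternatives and Il2rg under 6 of 11. Il15 lost its call without the heart pair (-1.07, adjusted p = 0.49), and Il2rg without the liver pair (1.38, adjusted p = 0.064) or the kidney pair (1.04, adjusted p = 0.10). Il2rb was higher in 3 of 3 pairs without passing (1.34, SE 0.50, adjusted p = 0.055), Il15ra differed by 0.29 (SE 0.48, adjusted p = 0.78), and Il2ra had too few UMIs to be tested. Neutrophil markers were at 25720 to 123468 CPM in macrophages of PBMCs and 365 to 4621 CPM in those of TILs. T-cell markers were higher in TILs in 3 of 3 pairs, as Il2rg and Il2rb were (510 to 1261 CPM in heart, 247 to 990 in liver and 831 to 2068 in kidney, PBMC first), and the part of these transcripts was not tested. Of 30 list genes, Cxcl9 (4.76) and Myc (1.68, but adjusted p = 0.051 with RLE size factors and 0.0099 to 0.61 over its alternatives) were higher, and Ccnd3 (-1.57), Mcl1 (-1.46), Gbp2 (-1.36) and Pik3cd (-1.34) were lower, with a median of -0.53 against 0.03 over all genes. Gbp2 and Cxcl9, both induced by interferon, thus moved in opposite directions in the sums of both gates, and the part of macrophage transcripts in the CD8 T sums was not tested.

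**Figure D4:**
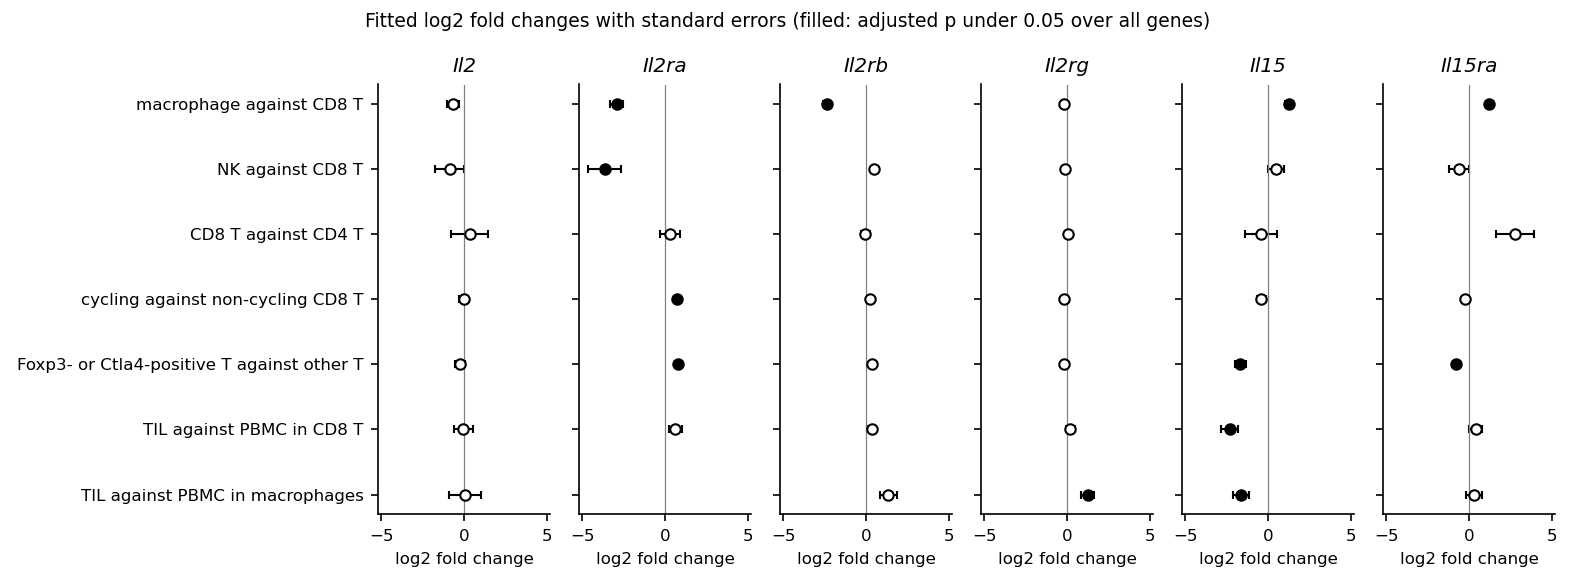
Log2 fold change (x axes) with its SE for each of the 6 genes in 7 comparisons (rows), filled where the adjusted p was under 0.05 over all genes tested. Il2ra is filled and right of 0 in the cycling and the Foxp3- or Ctla4-positive rows and left of 0 in NK cells and macrophages, and Il2 is open in every row.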

How the data were processed

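Counts of UMIs per gene and barcode were used as the authors deposited them, 1 table for each of 8 libraries. The submitters' processing notes name bcl2fastq, STAR and GRCm38, and the authors mapped reads with STAR at its default settings. The totals were 3418722 to 19171264 UMIs per library and 62080306 in all, and intervals reflect counting error only. A barcode counted as a cell from 500 UMIs on, provided that its mitochondrial share did not pass 10%. No doublet caller was run, and gates required 0 UMIs of Cd3, Csf1r or Cd79a from other lineages. The 6 members and the 4 lists (36 genes) were chosen with earlier results of these data known. UMIs were summed per library and gate (at least 20 cells), and genes with at least 10 UMIs over the sums were tested with edgeR 4.0.16 (quasi-likelihood, TMM, library or organ as a block, R 4.3.3), with Benjamini-Hochberg adjustment over all genes and calls under 0.05. SE is the log2 fold change over the root of F. Libraries stand in for replicates. With the block, p-values measure how far the difference within a library or pair varied among libraries or pairs that differ in organ or compartment. Blood, TILs and PC of an organ drew on the same few recipients, so libraries are not separate animals. Levels are CPM of the sums with exact 95% Poisson intervals, and ratios have exact conditional binomial intervals. Shares were taken after thinning each cell to 500 UMIs. Gates compared within a library share that library, which is the pairing of those fits.

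Named genes were the members, the list genes called in a comparison (at most 8 by size), and for each member the 3 genes with the highest Pearson correlation. Some genes that this rule names are not reported here. Alternatives were DESeq2 1.42.0, RLE size factors, 2 filters, no block, cells of 1000 UMIs, gates of 2 UMIs, thinned cells, and leaving out libraries. The split of all Cd3-positive cells and the interaction test were added after the data were seen. On simulated counts, changes of 2 on the log2 scale were recovered for 29% of genes in CD8 T cells against CD4 T cells, 76% in NK cells, 98% in macrophages against CD8 T cells, 100% in cycling cells and 99% in CD8 T cells of TILs against PBMCs. The changes were placed only in genes with more UMIs than Il2 had, or than Il15 had outside macrophages against CD8 T cells. The rates therefore do not cover Il2, or Il15 in those other comparisons. No simulation was run for macrophages of TILs against PBMCs or for the Foxp3- or Ctla4-positive split. Gene positions are from GENCODE, sequences from RefSeq. Analysis used Python 3.11.15, numpy 2.4.6, scipy 1.17.1, pandas 2.3.3 and matplotlib 3.10.9.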

Additional observations from a re-analysis of the deposited data

Results flagged for a closer look

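Barcodes under 500 UMIs entered no comparison. The 32458 of them held 10476725 UMIs, in which all 6 genes were found above the limit that a count of 0 allows. Their summed level was 168 CPM for Il2rb, 496 CPM for Il2rg, 38.8 CPM for Il15, 24.9 CPM for Il15ra, 13.4 CPM for Il2ra and 5.15 CPM for Il2. These values pool libraries that differed. Il15 held 58 of 912083 UMIs in heart, 143 of 1322501 in liver and 175 of 2402884 in kidney PBMCs. It held 3 of 155285 UMIs in heart TIL, 2 of 304163 in liver TIL, 11 of 2455751 in kidney TIL and 14 of 2924058 in kidney PC.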

How the results depend on the processing

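The number of the 6 genes called was 4 in macrophages against CD8 T cells, 3 without the block, 5 with gates of 2 UMIs and 4 under each other alternative. It was 0 in CD8 T cells against CD4 T cells under each alternative run, and fits with cells of 1000 UMIs, gates of 2 UMIs or without the libraries labelled heart TIL and liver TIL were not run there because too few libraries held 20 CD4 T cells. In NK cells against CD8 T cells it was 1, and 2 with RLE size factors or without the libraries labelled heart TIL and liver TIL, 0 without the block, with cells of 1000 UMIs or with thinned cells, and 0 to 1 over single libraries left out (0 without liver PBMC or without kidney PBMC). With DESeq2 the 1 gene called was Il2rb, and Il2ra had no adjusted p (NA). In cycling CD8 T cells it was 1, and 2 with cells of 1000 UMIs, 0 without the block, with thinned cells or without the libraries labelled heart TIL and liver TIL, and 1 to 1 over single libraries left out. In Foxp3- or Ctla4-positive T cells it was 3, and 4 with RLE size factors or filterByExpr, 2 with DESeq2 or cells of 1000 UMIs, 0 without the block or with thinned cells, 1 with gates of 2 UMIs or without the libraries labelled heart TIL and liver TIL, and 2 to 3 over single libraries. In CD8 T cells of TILs against PBMCs it was 1, and 0 with DESeq2, without the block, with cells of 1000 UMIs, with gates of 2 UMIs and with thinned cells, and 0 to 1 over pairs left out (0 without heart). In macrophages of TILs against PBMCs it was 2, and 1 with DESeq2, without the block or with cells of 1000 UMIs, 3 with thinned cells, 0 with gates of 2 UMIs, and 1 to 2 over pairs left out. The cause was not tested, except that left-out libraries and thinned cells leave fewer UMIs.

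Changes of sign were all in genes that had not passed the test. In CD8 T cells against CD4 T cells Il2rg was -0.12 with DESeq2 and -0.12 with RLE size factors, Il2rb was 0.016 with filterByExpr, 0.015 without a filter and 0.33 with thinned cells, Il2 was -0.12 and Il15 6.03 with thinned cells. Over single libraries left out, Il2rb ran from -0.21 to 0.77, Il15 from -1.20 to 7.34, Il2ra from -0.068 to 8.63 and Il2rg from -0.0027 to 0.20. In NK cells against CD8 T cells Il2rg was 0.24 with DESeq2, 0.24 with RLE size factors, 0.21 with filterByExpr and 0.33 with gates of 2 UMIs. There, Il15 was -0.77 and Il15ra 0.39 with cells of 1000 UMIs, Il15ra was 0.18 with thinned cells, and Il15 ran from -0.58 to 0.75 over single libraries. In cycling cells Il2 was 0.028 without a filter, 0.016 with cells of 1000 UMIs, 0.30 with gates of 2 UMIs, 0.011 without the libraries labelled heart TIL and liver TIL, and -0.16 to 0.074 over single libraries. In TILs against PBMCs Il2 ran from -0.35 to 0.42 in CD8 T cells and from -0.38 to 0.058 in macrophages over pairs left out, and in macrophages Il15ra was -0.11 with DESeq2 and Il2 was -0.056 with RLE size factors.

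The Il2rb ratio of liver to heart TILs was 1.73 and that of heart to kidney PBMCs 0.780 with gates of 2 UMIs. The PBMC ratio thus lay above the interval of the main gates (0.397 to 0.748). Unthinned, the Il2rb shares of CD8 T cells were 10.9%, 15.3% and 22.1% in heart, liver and kidney PBMCs, 14.3%, 19.2% and 17.7% in the TILs and 28.7% in liver PC. Over all genes, leaving out the block lowered the calls from 1508 to 4 in cycling cells, from 1081 to 2 in Foxp3- or Ctla4-positive T cells, from 1326 to 7 in CD8 T cells of TILs against PBMCs, from 4010 to 1396 in macrophages, from 383 to 65 in NK cells and from 61 to 8 in CD8 T cells against CD4 T cells. DESeq2 called 857, 413, 484, 2646, 128 and 22 genes in the same order, and 356 in place of 1183 in macrophages of TILs. Thinned cells gave 579, 502, 2331, 219 and 40 calls (cycling, Foxp3- or Ctla4-positive, macrophages, NK, CD4) and 772 in macrophages of TILs. Gates of 2 UMIs gave 478 (Foxp3- or Ctla4-positive), 618 (CD8 T cells of TILs), 331 (macrophages of TILs) and 103 (NK), and cells of 1000 UMIs gave 666, 775 and 250 in the first, second and last of these. Calls in CD8 T cells of TILs were 780 with filterByExpr. Leaving out 1 library or pair gave 25 (without liver TIL) and 28 (without heart TIL) in CD8 T cells against CD4 T cells, 609 in NK cells without liver TIL, 2422, 788 and 613 without liver PC in macrophages, cycling cells and Foxp3- or Ctla4-positive T cells, 525 in CD8 T cells of TILs without heart, and 400 and 443 in macrophages of TILs without heart and without liver. Without the libraries labelled heart TIL and liver TIL it was 717 in cycling cells and 611 in Foxp3- or Ctla4-positive T cells. Calls split into 40 higher and 21 lower in CD8 T cells against CD4 T cells, 36 and 32 with RLE and 10 and 12 with DESeq2. They split into 1947 and 2063 in macrophages (1563 and 1083 with DESeq2), 733 and 593 in CD8 T cells of TILs (218 and 266 with DESeq2) and 572 and 611 in macrophages of TILs (127 and 229 with DESeq2). The median over all genes in CD8 T cells against CD4 T cells was 0.36, 0.19 with RLE and -0.12 with DESeq2. Of the values for single genes under alternatives, 459 kept their direction and their side of the threshold, 39 lost and 12 gained a call, and 31 changed sign.

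Depth limited the rarest genes. Il2 and Il2ra rest on few UMIs in most gates, CD4 T cells number 174, and on simulated counts a log2 change of 1 was recovered for 9% of genes in the comparison with CD4 T cells and for 21% in that with NK cells. Each condition had 1 library, so organs were not tested against each other. Gates rest on single UMIs, which free RNA can give.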

Other observations

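Genes that followed each member over 27 sums of library and gate (log2 of CPM + 10, Pearson correlation, 7910 genes compared) are given as a description, since sums of 1 library share its depth and its free RNA. Il2rb was followed most closely by Nkg7 (0.933), a cytotoxic granule gene, Skap1 (0.929), a T-cell adaptor, and Gm19585 (0.916). Il2ra was followed by Bdh1 (0.870), Klk8 (0.854) and Lat (0.853), an adaptor of the T-cell receptor. Il15 was followed by Gbp2 (0.903) and Oas2 (0.896), both interferon-induced. Il15ra was followed by Slc11a1 (0.824), a metal transporter of phagocytes, Hpse (0.781) and St3gal5 (0.758). The closest genes to Il2rg were Ndufab1 (0.880), Banf1 (0.856) and Atp5g3 (0.853), and those to Il2, which had 223 UMIs in these sums, were Dmtf1 (0.761), Mvb12b (0.711) and Cep120 (0.644).

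Macrophages of the grafts were split by C1q and Ly6c2. In heart TIL, liver TIL and liver PC, C1q-high macrophages held Il15ra at 70.2, 37.0 and 84.1 CPM, and Ly6c2-positive macrophages at 27.4, 49.2 and 60.7 CPM (2, 4 and 21 UMIs), so the order was not the same in the 3 libraries. Their Il15 was 19.7, 33.1 and 10.1 CPM against 27.4, 12.3 and 11.6 CPM. Among 24 dendritic cells of liver PC there were 0 Il15 UMIs and 2 Il15ra UMIs.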
